A study of Mus musculus with 6 samples.

Results

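Aldh1l1, Aldh1a1, Ntsr2, Cldn10, Agt, Ndrg2, Pla2g7, Acsbg1, Ttyh1 and Gpr37l1 are 10 genes used as markers of astrocytes in general. They were followed in cells sorted as astrocytes from the olfactory bulb (OB) of control mice and of mice deleted for the transcription factor Sox9. The genes were chosen by gene symbol, and all 10 were found among the 24421 gene symbols listed for each library. All 10 were lower in every Sox9 KO library than in every control library, with between 4.00% (Gpr37l1) and 30.6% (Aldh1a1) of the control level left.

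The study asked what Sox9 does in mature OB astrocytes, and its RNA-seq experiment compared TurboRFP-positive cells sorted from the bulbs of 3 control and 3 Sox9 KO male mice. All 6 mice, of a C57BL/6 strain by the labels, carried AAV-GFAP-iCre-P2a-TurboRFP, a virus in which the GFAP promoter expresses the recombinase Cre and a red fluorescent protein, and their cells were sorted by flow cytometry (FACS) 4 weeks after it was injected. The KO mice were Sox9fl/fl, so that Cre removes the floxed part of the gene. The controls had no floxed allele: they received the same Cre, and they are named C57BL/6J in one place and Sox9+/+ in another. The mice were adults, and the study gives random assignment of littermates to groups as its general practice, without a statement for the sequenced mice in particular. The GFAP promoter defined both the deletion and the sort. The cells were lysed as they left the sorter, and the study judged their purity from cell type markers in the RNA-seq data. Total RNA, 10 ng for each library, was sequenced.

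Astrocytes take up glutamate and potassium, supply neurons with metabolites and line blood vessels with their endfeet. The 10 markers come from several of these tasks. Aldh1l1 and Aldh1a1 are aldehyde dehydrogenases, of which the first oxidises formyltetrahydrofolate in folate metabolism and the second makes retinoic acid from retinaldehyde. Acsbg1 activates long fatty acids by joining them to coenzyme A, and Pla2g7 is a secreted hydrolase that inactivates platelet-activating factor. Ntsr2 (a neurotensin receptor) and Gpr37l1 are G protein-coupled receptors, Agt is the precursor from which angiotensins are cut, Cldn10 is a claudin of cell junctions, Ttyh1 is a membrane protein of the tweety family and Ndrg2 is a cytoplasmic protein of the NDRG family. Sox9 is a DNA-binding protein of the SOX group that directs glial fate in development and that astrocytes keep in the adult.

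The promoters of the 10 genes are described here because Sox9 is a DNA-binding protein. Whether Sox9 acts at any of them was not tested. RefSeq on GRCm38.p6 (mm10) lists 14 start sites for them, and the 250 bases before and 50 after each start were searched on both strands for ACAAAG and ACAATG, short forms of the letters that SOX proteins bind. A match was found at 3 of the 14 starts, against 28.6% of the 32851 mouse promoters of the same length in the table. The match lay 74 bases before a start of Cldn10 (chr14:118787621-118787920, plus strand, match on the minus strand). In Pla2g7 it lay 205 bases before the listed start (chr17:43568201-43568500, plus strand), in a window inside the gene's annotated range. In Aldh1a1 it lay 235 bases before the upstream one of 2 starts (chr19:20492333-20492632, plus strand). These 3 sequences follow, 5′ to 3′ with the match in capitals, and with them the promoters of Aldh1l1 (chr6:90550543-90550842, plus strand), a gene widely used to define astrocytes, and of Gpr37l1 (chr1:135167632-135167931, minus strand), which had the most negative fold change over all 6 libraries. The last pair holds neither word. A match is a description of the letters and not of binding, and the absence of one in this window says nothing about a factor.
Cldn10: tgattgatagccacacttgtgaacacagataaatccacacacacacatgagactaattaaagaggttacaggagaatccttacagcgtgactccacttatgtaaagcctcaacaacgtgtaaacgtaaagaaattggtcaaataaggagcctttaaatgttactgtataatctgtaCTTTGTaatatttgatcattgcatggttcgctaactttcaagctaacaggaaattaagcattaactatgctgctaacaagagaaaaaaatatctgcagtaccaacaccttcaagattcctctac
Pla2g7: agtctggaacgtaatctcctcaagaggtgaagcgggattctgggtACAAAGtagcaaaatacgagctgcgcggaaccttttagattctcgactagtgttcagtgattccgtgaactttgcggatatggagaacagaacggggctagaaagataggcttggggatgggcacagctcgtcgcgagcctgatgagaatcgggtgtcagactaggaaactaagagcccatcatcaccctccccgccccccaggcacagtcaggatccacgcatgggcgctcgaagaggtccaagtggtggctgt
Aldh1a1: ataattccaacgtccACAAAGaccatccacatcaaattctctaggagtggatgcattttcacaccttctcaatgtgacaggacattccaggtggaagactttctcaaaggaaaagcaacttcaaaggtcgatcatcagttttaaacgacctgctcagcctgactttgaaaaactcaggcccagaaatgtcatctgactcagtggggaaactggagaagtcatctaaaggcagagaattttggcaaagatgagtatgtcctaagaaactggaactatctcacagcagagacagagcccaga
Aldh1l1: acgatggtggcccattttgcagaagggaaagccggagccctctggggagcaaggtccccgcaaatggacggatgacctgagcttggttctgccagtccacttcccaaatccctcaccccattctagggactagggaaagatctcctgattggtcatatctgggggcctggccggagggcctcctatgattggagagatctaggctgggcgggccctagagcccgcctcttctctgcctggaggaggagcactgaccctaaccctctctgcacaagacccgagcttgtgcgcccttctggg
Gpr37l1: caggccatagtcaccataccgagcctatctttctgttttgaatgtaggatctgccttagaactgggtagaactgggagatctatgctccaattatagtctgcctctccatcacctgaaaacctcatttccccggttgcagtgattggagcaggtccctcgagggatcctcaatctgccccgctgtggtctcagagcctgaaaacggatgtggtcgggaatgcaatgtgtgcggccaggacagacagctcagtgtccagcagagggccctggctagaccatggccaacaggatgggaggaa

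Sox9 itself followed the labels, though values of pooled cells do not show in which cells it was lost. Control replicates 1, 2 and 3 held 5185, 6562 and 4921 normalized counts of it, whereas 52.6, 64.3 and 57.7 remained in KO replicates 1, 2 and 3, or 1.05% of the control mean. Library values are given in this order of replicates throughout. Normalized counts are reads per gene divided by 1 size factor per library. The libraries held between 18242129 and 86906527 reads on genes, and a single read counted for 0.395 (KO replicate 2) to 1.58 (control replicate 3) normalized counts. Of the genes listed, 18413 had a mean of at least 1 normalized count and were compared with limma on log2(normalized count + 1). A gene was called at 1.5-fold and an adjusted p of 0.05, the p being adjusted by Benjamini-Hochberg over all genes tested.

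All 10 markers were called lower in the KO cells. The background was wide: 28.8% of all genes tested were called lower, 22.2% were called higher, and in 34.7% every KO library lay below every control library. The median log2 fold change was -4.02 over the 10 markers and -0.07 over all genes tested. Fold changes are KO over control, and a fold change on log2(normalized count + 1) slightly understates that of a low gene. Each library came from 1 mouse, and in bulk RNA fewer cells of a type and less RNA per cell cannot be told apart.

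**Figure D1:**
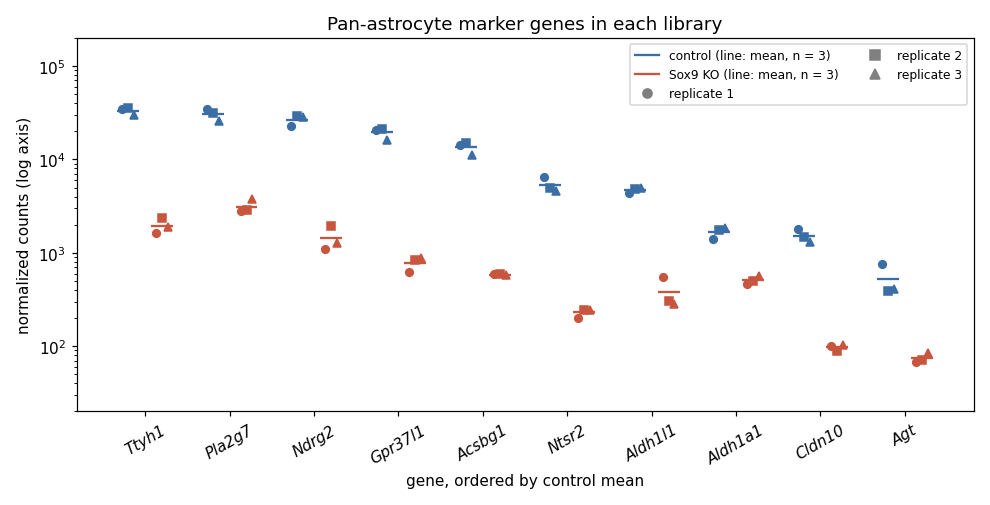
Normalized counts of the 10 marker genes in each library (points, log axis; blue, control; red, Sox9 KO; symbols give the replicate number) with the group mean (lines, n = 3). Genes are ordered by their control mean. In every gene the 3 red points lie below the 3 blue ones, and the gap is narrowest for Agt and Aldh1a1.

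Gpr37l1 and Ntsr2, the 2 receptors, were among the markers that lost most of their level, together with Acsbg1. The ratios among these 3 genes overlapped between KO and control, and under quantile normalization the log2 fold change of Ntsr2 (-4.49) was smaller in size than those of Acsbg1 (-4.74) and Ndrg2 (-4.58). Gpr37l1 (chr1:135160250-135167681, minus strand) stood at 20760, 21167 and 16314 normalized counts in the controls and fell to 616, 831 and 881 with Sox9 deleted. The highest KO library kept 4.54% of the control mean, far below the lowest control. Its log2 fold change was -4.65 ± 0.15 (SE, n = 3 per group, limma, adjusted p = 8.5e-09). Ntsr2 (chr12:16653443-16660236, plus strand) was at 6477, 4938 and 4592 in control mice, with replicate 1 the highest, and at 203, 244 and 246 in KO mice. The KO values lay within a narrow band, and 4.33% of the control level was left. The log2 fold change of Ntsr2 was -4.51 ± 0.15 (limma, adjusted p = 8.5e-09).

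Both enzymes of lipid handling fell. Acsbg1 (chr9:54604886-54661885, minus strand) read 14406, 15022 and 11023 normalized counts in control mice and 589, 593 and 573 in KO mice. It had the tightest KO values of the 10 genes, with a coefficient of variation of 1.82%, and 4.34% of its control level remained. The log2 fold change of Acsbg1 was -4.51 ± 0.12 (limma, adjusted p = 4.4e-09). Pla2g7 (chr17:43567994-43612202, plus strand) read 34404, 31181 and 25609 in control mice and 2776, 2854 and 3752 in KO mice. KO replicate 3 was the highest of its group but far below the controls, and 10.3% of the control level remained. The log2 fold change of Pla2g7 was -3.28 ± 0.14 (limma, adjusted p = 3.5e-08).

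Among the membrane and cytoplasmic proteins, Ttyh1 (chr7:4119530-4135407, plus strand) had 34393, 35676 and 29839 normalized counts in control mice and 1621, 2354 and 1891 in KO mice. The groups lay far apart, and 5.87% of the control level was left (log2 fold change -4.10 ± 0.13, limma, adjusted p = 9.2e-09). Ndrg2 (chr14:51905271-51914004, minus strand) had 22826, 28887 and 28093 in control mice and 1086, 1934 and 1261 in KO mice. KO replicate 2 was the highest of its group for both genes. For Ndrg2 5.36% of the control level was left (log2 fold change -4.26 ± 0.19, limma, adjusted p = 4e-08). Cldn10 (chr14:118787871-118874525, plus strand) had 1792, 1487 and 1310 in control mice and 100, 89.6 and 103 in KO mice, a fall to 6.39% of the control level (log2 fold change -3.94 ± 0.16, limma, adjusted p = 2.4e-08). Cldn10 has 2 annotated starts, and the values do not separate their transcripts.

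The 2 aldehyde dehydrogenases fell by unlike amounts. Aldh1l1 (chr6:90550768-90599171, plus strand) was at 4350, 4859 and 4882 normalized counts in control mice, which differed by little, and at 551, 306 and 281 in KO mice. KO replicate 1 stood above the other two, and the coefficient of variation of Aldh1l1 was 39.3% in the KO group against 6.39% in the controls. On average 8.08% of the control level was left (log2 fold change -3.69 ± 0.21, limma, adjusted p = 2e-07). Aldh1a1 (chr19:20492583-20643463, plus strand) was at 1388, 1763 and 1839 in control mice and at 465, 497 and 567 in KO mice. It kept 30.6% of its control level, the most of the 10 genes, and the groups did not overlap (log2 fold change -1.70 ± 0.14, limma, adjusted p = 2e-06). Ranked among all 18413 genes from the most negative fold change, Aldh1a1 was at rank 3539, whereas Gpr37l1 was at rank 149.

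Agt (chr8:124556587-124569706, minus strand) was the lowest of the 10 markers per length in the controls and the most variable there, with 753, 391 and 411 normalized counts. In KO mice it had 67.5, 71.1 and 83.6, resting on 68, 180 and 55 reads. Control replicate 1 stood well above the other two, and the coefficient of variation of Agt was 39.2% in the controls against 11.4% in the KO group. The groups still did not overlap, and 14.3% of the control level was left (log2 fold change -2.73 ± 0.26, limma, adjusted p = 7.3e-06). Under quantile normalization the log2 fold change of Agt was -2.19, the furthest from its main value.

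**Figure D2:**
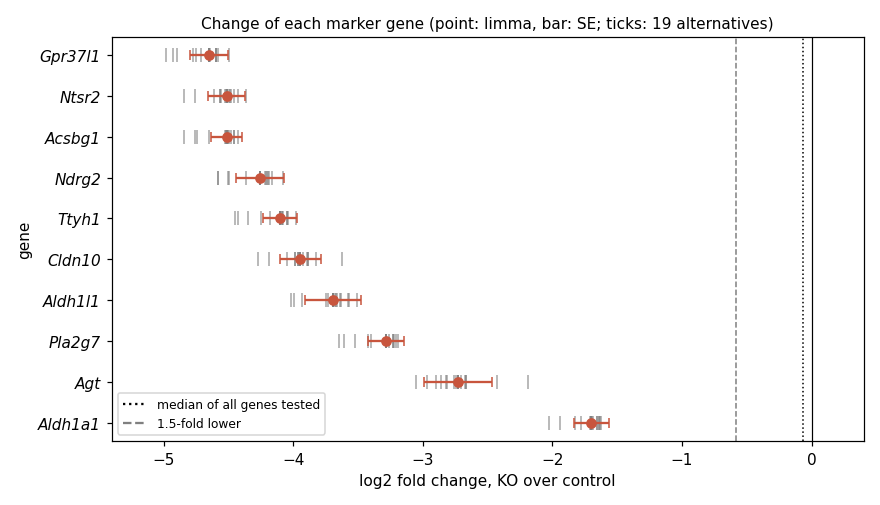
Log2 fold change of each marker gene, KO over control (red points, bars give the SE, n = 3 per group), with the values under 19 other settings as grey ticks. The dashed line marks a 1.5-fold lower level and the dotted line the median of all genes tested (-0.07). Every point and tick lies left of the dashed line, from Gpr37l1 at -4.65 to Aldh1a1 at -1.70.

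Levels can be compared between genes only per length, and normalized counts per kilobase of annotated exon were used for this. In the controls Pla2g7 was first at 14496 per kilobase, then Ndrg2 at 12333, Gpr37l1 at 8556 and Ttyh1 at 7586. The ranges of Pla2g7 and Ndrg2 over the 3 libraries overlapped, as did those of Gpr37l1 and Ttyh1. Acsbg1 at 4682 and Ntsr2 at 3501 followed, also with overlapping ranges, then Aldh1l1 at 1125, Aldh1a1 at 695 and Cldn10 at 590, where the last pair overlapped, and Agt at 274. In the KO libraries Pla2g7 was again first, at 1491 per kilobase, and clear of Ndrg2 at 661. The ranges of Ndrg2 and Ttyh1 overlapped, and so did those of Ttyh1 (445) and Gpr37l1 (342). Aldh1a1 at 213 per kilobase had moved up beside Acsbg1 at 203, above Ntsr2 at 151 and Aldh1l1 at 90.9. Agt at 39.2 and Cldn10 at 37.7 came last and overlapped.

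Together the 10 genes took 0.601%, 0.605% and 0.528% of all values of the control libraries, when the ribosomal RNA precursor Rn45s was left out. Their share in the KO libraries was 0.0263%, 0.0335% and 0.0329%. Within the groups no library was low or high for every marker. Control replicate 3 was the lowest control for 6 of the 10 genes, KO replicate 1 was the lowest KO library for 7 and KO replicate 3 was the highest for 6. For Aldh1l1, KO replicate 1 was instead the highest.

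Dividing each gene by Aldh1l1 in the same library removes the library scaling and shows whether the markers fell in proportion. For Aldh1a1 the log2 ratio to Aldh1l1 was -1.65, -1.46 and -1.41 in control mice and -0.25, 0.70 and 1.01 in KO mice. The ranges were apart. Per kilobase, Aldh1a1 was below Aldh1l1 in all 3 control libraries and above it in all 3 KO libraries. The difference was 1.99 ± 0.37 on the log2 scale (SE). The log2 ratio of Gpr37l1 was 2.25, 2.12 and 1.74 in control mice and 0.16, 1.44 and 1.65 in KO mice, a difference of -0.96 ± 0.35 with ranges that nearly touched. The ratios of Ntsr2 (difference -0.82 ± 0.37) and Acsbg1 (-0.82 ± 0.35) were also lower in every KO library than in every control. In each of these 3 genes KO replicate 1 lay far below the other KO libraries. That of Agt was higher in the KO cells by 0.96 ± 0.45, with overlapping ranges. The ratios of Ndrg2 (-0.56 ± 0.35), Ttyh1 (-0.41 ± 0.35), Cldn10 (-0.25 ± 0.41) and Pla2g7 (0.41 ± 0.35) overlapped between the groups. KO replicate 1 decided the size of several of these differences. Without it they were -0.50 for Gpr37l1, -0.43 for Ntsr2, -0.52 for Acsbg1, -0.09 for Ndrg2, 0.02 for Ttyh1 and 0.03 for Cldn10, whereas those of Pla2g7 (0.79), Agt (1.33) and Aldh1a1 (2.36) were larger.

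By limma on these ratios, with p-values adjusted over 18412 genes, the differences of 5 markers had an adjusted p under 0.05: Gpr37l1 (0.0078), Acsbg1 (0.024) and Ntsr2 (0.03) fell more than Aldh1l1, and Agt (0.037) and Aldh1a1 (1.6e-07) fell less. The background here was lopsided, since 0.771% of all genes were lower relative to Aldh1l1 and 88.3% were higher. These p-values are too small. Every ratio carries the spread of the same 6 Aldh1l1 values, and the fit took that spread as if it had been measured separately in every gene. A two-sided exact permutation test over the 6 libraries gave p = 0.1 for Aldh1a1, Gpr37l1, Acsbg1 and Ntsr2, the smallest value that 3 libraries against 3 allow, and p = 0.2 for Agt. Only Aldh1a1 stayed under 0.05 in limma in all 14 alternatives run on the ratios, and without control replicate 2 it was the only one of the 9 genes to do so.

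**Figure D3:**
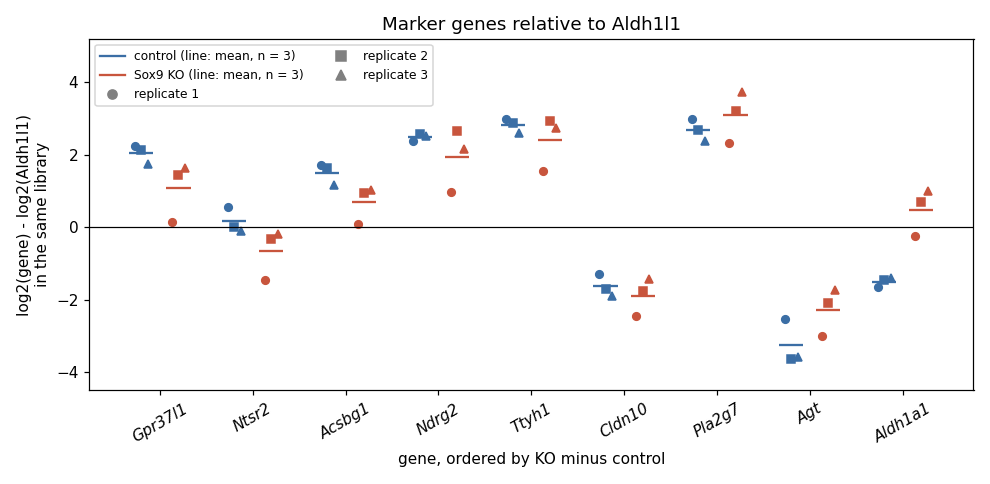
Log2 ratio of 9 marker genes to Aldh1l1 in the same library (points; blue, control; red, Sox9 KO; symbols give the replicate number), with group means (lines, n = 3). The red circles of KO replicate 1, the library with the highest KO level of Aldh1l1, are the lowest of the KO points in every gene. The groups are apart for Gpr37l1, Ntsr2, Acsbg1 and Aldh1a1.

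The ratios of all 45 pairs of markers gave the same picture without a reference gene. In 30 of the 45 pairs the log2 ratio did not overlap between KO and control. The pairs share genes, and the share over pairs of all genes was not calculated, so these counts are descriptions. The ratios of Aldh1a1 were apart in 9 of 9 pairs, those of Agt in 8 of 9 and those of Pla2g7 in 7 of 9. Those of Ndrg2 were apart in 2 of 9. Aldh1a1 and Agt were thus the markers that kept more of their level relative to nearly all the others.

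The gene whose profile over the 6 libraries lay nearest to that of Aldh1l1, by the root mean square difference of centred log2 values, was 4930428E07Rik (0.10), followed by Stard10 (0.18) and Gm15881 (0.18). Stard10, a lipid transfer protein, was at 381, 444 and 348 normalized counts in control mice and at 41.7, 27.2 and 28.9 in KO mice, with KO replicate 1 the highest as in Aldh1l1. The other two were low genes, at no more than 21.3 normalized counts in any library. Of the 9 other markers, Cldn10 came nearest at rank 90 of 18412 and Aldh1a1 was the furthest at rank 2859.

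The markers were read beside 59 other astrocyte genes. Of these, 57 were called lower and 2 higher, with a median log2 fold change of -4.04, close to the -4.02 of the 10 markers. The glutamate transporter Slc1a2 (-4.30) was among those that fell. The 2 that rose were Apoe (log2 fold change 0.97), an apolipoprotein, and Cst3 (1.10), a protease inhibitor. Microglia also make both in quantity, and which cells carried their rise was not tested. Gfap, whose promoter was in the virus, fell by 4.36.

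Markers of other cell types moved too. The summed level of 20 microglia and macrophage markers was between 280460 and 310520 normalized counts in control mice and between 1069300 and 1214900 in KO mice, and 19 of the 20 were called higher (median log2 fold change 1.96), with Ctss and Csf1r among the highest. The summed level of the 10 astrocyte markers went the other way, from between 123910 and 145370 to between 8073 and 9774. Neuron markers fell with them, from between 29698 and 37527 to between 4533 and 7438, with 17 of 18 called lower (median -2.58). All 8 oligodendrocyte precursor markers were called lower (median -2.90, summed level 6970 to 7842 in control and 588 to 922 in KO mice), and so were 9 of 10 oligodendrocyte markers (median -1.67, 38009 to 67823 and 15869 to 26075). Of the endothelial markers 6 of 10 were called lower and 2 higher (2675 to 4346 in control and 2099 to 2666 in KO mice). In the other lists, 5 of 9 mural cell markers (2550 to 2996 and 889 to 1335), 8 of 10 olfactory ensheathing cell markers (37295 to 46945 and 10730 to 17241) and 3 of 8 ependymal markers (988 to 1263 and 185 to 355) were called lower, and none higher. The ependymal count stands beside 28.8% called lower over all genes tested. Most of the ependymal sum in control mice was Foxj1 (mean 926), and Enkur of that list was not called (log2 fold change 0.62). Of 5 erythroid markers, 4 globin genes were listed at 0 in all 6 libraries and Alas2 was called lower. Apart from these globins, no marker was at 0 throughout a group. The part of the other cell types in the fall of the astrocyte markers was not tested.

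**Figure D4:**
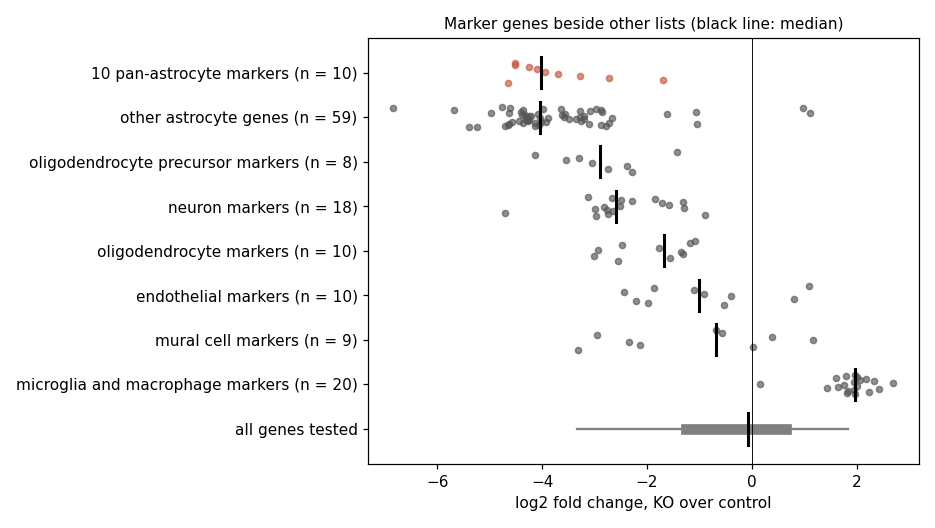
Log2 fold changes, KO over control, of the genes tested in each list (points; vertical shifts only separate them) with the list's median (black lines). In the bottom row the grey bar spans the middle 50% of all genes tested and the grey line the middle 90%. The medians of the 10 markers (red) and of the other astrocyte genes lie furthest left, and the microglia and macrophage markers lie right of 0. Single points differ: the lowest neuron marker (-4.72) lies left of all 10 markers, and Apoe and Cst3 of the other astrocyte genes lie right of 0.

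The families and pathways of the 10 genes held 114 other tested genes, of which 39 were called lower, 27 higher and 48 neither, with a median log2 fold change of -0.27. These shares are near the 28.8% and 22.2% called lower and higher over all genes tested. The counts for single families below are small and are given as descriptions. Microglia and macrophage markers rose in the same libraries (median log2 fold change 1.96), and which cells carried the changes below was not tested.

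In the aldehyde dehydrogenase family 4 of 6 genes were called lower and 1 higher. The mitochondrial Aldh2 (log2 fold change -1.07, adjusted p = 7e-06) and Aldh1l2, the mitochondrial counterpart of Aldh1l1 (-1.16, adjusted p = 0.0088), fell. So did the other retinaldehyde dehydrogenases Aldh1a3 (-1.77) and Aldh1a2 (-0.79), both from under 100 normalized counts. Aldh1b1 rose (1.35) from a mean of 17.0. Aldh1a7, the closest relative of Aldh1a1, was not called and ranged from 1.46 to 36.3 in control and from 3.95 to 83.6 in KO mice. Of the 50-base words in the annotated transcripts of Aldh1a1, 3.06% also occur in Aldh1a7, so that a small share of reads could fit either gene. Of the 24 folate enzymes, 5 were called lower and 7 higher. Gldc of the glycine cleavage system fell by 4.53, as far as the receptors above, whereas the methionine synthase Mtr (1.37), the purine synthesis enzyme Gart (1.23) and the hydrolase Ggh (1.16) rose. Among 18 genes of retinoid handling 7 were called lower and 4 higher. The nuclear receptors Rxra (1.54) and Rxrb (0.81) and the reductase Dhrs3 (1.78) rose, and the retinol dehydrogenase Rdh10 fell by 1.27.

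Ntsr1, the other G protein-coupled neurotensin receptor, was called lower (adjusted p = 0.0013) but stood at only 10.0 normalized counts in control and 0.263 in KO mice. Sort1 and Sorl1, sorting receptors that also bind neurotensin, moved less: the log2 fold change was 0.29 for Sort1, which was not called, and Sorl1 fell by 0.63 on that scale. Neurotensin itself (Nts) had means of 2.55 and 1.32 and was not called. For Gpr37l1, the related receptor Gpr37 fell by 3.24 (adjusted p = 6.9e-05), and prosaposin (Psap), proposed as a ligand of both, rose by 1.04 on the log2 scale. Psapl1 averaged 13.7 normalized counts in control mice and was listed at 0 in every KO library.

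Among the claudins and tight junction genes 8 of 22 were called lower and 3 higher. The log2 fold change was -3.88 for Cldn19, -2.93 for Cldn11, a claudin of myelin, -2.43 for Cldn12 and -0.90 for Cldn5, a claudin of blood vessels. The adhesion protein F11r rose by 1.42, and Tjp1 (-0.40) and Cldnd1 (-0.03) were not called. In the renin-angiotensin list 1 of 13 genes was called lower and 4 higher. The genes that rose were the peptidases Lnpep (1.22), Prcp (1.77) and Anpep (2.76) and the prorenin receptor Atp6ap2 (0.79). The gene called lower is not named here. The angiotensin receptor Agtr1a had the most negative log2 fold change of the list (-1.72). At a mean of 4.72 in the controls it was not called. The renin gene Ren1 and the receptors Agtr1b and Agtr2 were too low to test.

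In the NDRG family Ndrg4 (log2 fold change -3.18) and Ndrg1 (-1.66) fell, and Ndrg3 (-0.46) was not called. The tweety genes Ttyh3 (-0.90) and Ttyh2 (-0.81) fell as well, beside -4.10 for Ttyh1. Of 8 genes of platelet-activating factor, 1 was called lower and 4 higher: the acyltransferase Lpcat2, which makes the lipid, rose by 2.03 and its receptor Ptafr by 2.49, whereas the intracellular hydrolase subunits Pafah1b1 (-0.06) and Pafah1b2 (-0.23) were not called. Of the 11 genes for fatty acid activation 5 were called lower and 3 higher. Acsl6 (-4.16), Slc27a1 (-3.05) and Acsl3 (-2.75) fell, Acsl4 rose by 1.71, and Acsbg2, the paralog of Acsbg1, was not called, at 3.34 in control mice and listed at 0 in every KO library.

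**Figure D5:**
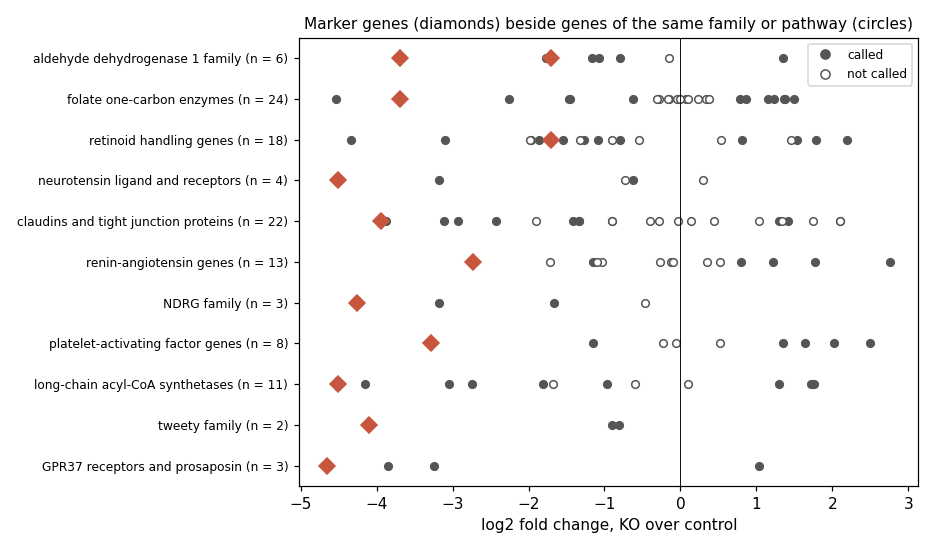
Log2 fold changes, KO over control, of the marker genes (red diamonds) and of the tested genes of their family or pathway (circles; filled, called; open, not called). In every row but those of the folate, retinoid and aldehyde dehydrogenase genes the diamond lies left of every circle. In the aldehyde dehydrogenase row Aldh1a3 (-1.77) lies beside Aldh1a1 (-1.70).

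Some markers overlap other annotated genes. Antisense genes listed in the files reached 700 normalized counts in the controls at Pla2g7 (1700071M16Rik) and 232 at Ttyh1 (9430041J12Rik), small beside the markers themselves, and an overlapping transcript at Aldh1a1 (C730002L08Rik) reached 20.5. An antisense gene is also annotated at Aldh1l1 and was not analysed here. The sources used here do not state whether reads were counted by strand, and without strand the reads of a gene and of its antisense partner cannot be told apart.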

How the data were processed

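Reads were mapped to mm10 with STAR 2.5.0a, counted by GenomicAlignments and GenomicFeatures, and normalized in DESeq2 1.20.0 by the authors (versions from the submitters' processing notes). The sources used here do not name the gene annotation. The deposited signal values are named RPM, but in each library 100% were whole multiples of 1 step within 0.01 read, so they are reads divided by a size factor and are called normalized counts. The recovered reads served the edgeR and DESeq2 alternatives.

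Of the listed genes, 6008 averaged under 1 normalized count and were left out, and the other 18413 were compared by limma 3.58.1 (R 4.3.3) on log2(value + 1), with a trend of variance on the mean, two-sided, all 6 libraries and no covariates. The ratio comparison subtracted the log2 value of Aldh1l1 in each library. Alternatives were 2 other pseudocounts, 2 filters, 4 scalings, 2 variance models, the replicate block, edgeR 4.0.16, DESeq2 1.42.0, 2 thresholds and leaving out each library. The scripts were tested on simulated data. Libraries of a group differed by more than sampling noise (chi-square per degree of freedom of at least 18.4), so each counted as 1 sample.

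Named genes were the 10 markers, Sox9, at most the 4 genes of highest mean in each list, relatives, ligands and receptors of the markers, and the 3 nearest profiles. The value of Gfap, which this rule does not name, had been seen when it was added, and some single genes that the rule would name are not reported here. The members and all lists were chosen with earlier results of these data known. Marker lists came from general knowledge, promoters from RefSeq (GRCm38.p6) and exon lengths and overlaps from GENCODE M21.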

Additional observations from a re-analysis of the deposited data

How the results depend on the processing

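The fall of the 10 markers kept its direction and its call in all 190 values from 19 alternatives for each gene, with adjusted p-values of at most 0.0008, and all 10 genes were called lower in each of 21 settings, none higher. The 57 other astrocyte genes called lower ranged from 56 to 57, and the 66 related genes called ranged from 54, at 2-fold, to 68. The counts over all genes depended on the scaling: 56.4% of the called genes were lower in the main comparison, 43.2% under quantile normalization, 67.8% with equal totals and 71.5% with equal totals without Rn45s, which moved the median of all genes by 0.27, -0.23 and -0.31 on the log2 scale. The comparison with Aldh1l1 was the least stable. The 5 markers whose change differed from that of Aldh1l1 became 1 without the variance trend and 2 with the replicate block, and leaving out a library gave between 1 and 6, with 2 without control replicate 1, 1 without control replicate 2 and 3 without control replicate 3. The cause was not tested. The replicate numbers gave no sign of pairing. Same-numbered control and KO libraries had correlations of their deviations of -0.05, -0.01 and -0.01. Of the 6 libraries, 0 correlated best with its own number. These values do not show whether libraries were processed together. The replicate block left the calls of the 10 markers in place. Depth limits Agt most, whose KO values rest on 55 to 180 reads. With 3 libraries a group, the design cannot give an exact permutation p under 0.1.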
